A study of Homo sapiens with 15 samples.

Results

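Transcript levels of 10 Fanconi anemia genes were described in the ovarian cancer line OVCAR4 and in 4 platinum-resistant lines derived from it. The genes were taken as a fixed list of symbols, FANCA, FANCC, FANCD2, FANCE, FANCF, FANCG, FANCI, FANCL, FANCM and BRIP1, and every one of the 10 was found among the 16604 genes measured. OVCAR4 is an established cell line with features of high-grade serous ovarian carcinoma. Ovcar4Parental is the platinum-sensitive starting line. Ov4Cis was selected with cisplatin and Ov4Carbo with carboplatin, in each case by raising the drug until the IC50, the concentration at the midpoint of the growth response, stood 2 to 10 fold higher. Ov4Carbo4 and Ov4Carbo7 were each grown from a single cell of Ov4Carbo, so each stands for 1 clone. All 5 lines share the OVCAR4 background and the same serum-containing medium, and whether drug was in the medium at harvest is not given in the sources used here. Polyadenylated RNA was sequenced from 3 biological replicates per line, 15 samples in all. Levels below are log2 RPKM (reads scaled by gene length and by library size, on a log2 scale), so levels of different genes can be compared per length, and a difference of 1 is a 2-fold change.

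Cisplatin and carboplatin kill cells by bonding DNA bases to each other, and the bonds that join opposite strands, interstrand crosslinks, stop the replication fork. The Fanconi anemia pathway removes them. FANCM binds DNA at the stalled fork and recruits the core complex, in which FANCA and FANCG form one module, FANCC, FANCE and FANCF another, and FANCL is the ubiquitin ligase of a further module. The core complex attaches ubiquitin to FANCD2 and FANCI, a clamp that encloses the DNA and calls in the nucleases that cut the crosslink out. BRIP1, a helicase that binds BRCA1, acts later, in the recombination steps. Cells that lack any of these genes are very sensitive to crosslinking drugs, and silencing of FANCF has been described in ovarian cancer cells.

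The 15 samples had medians over all genes of 2.77, and the read depth is unknown because only normalised values were used. PAX8, a defining gene of serous ovarian epithelium, was present in every line, whereas WT1, another, lay below log2 RPKM 0 in all of them. Of the 8 epithelial markers, 7 were above log2 RPKM 0 in Ovcar4Parental, Ov4Carbo and Ov4Carbo4, 6 in Ov4Carbo7 and 4 in Ov4Cis. Their summed RPKM was 708 to 865 in Ovcar4Parental, 352 to 412 in Ov4Carbo, 298 to 376 in Ov4Carbo4, 298 to 317 in Ov4Carbo7 and 157 to 190 in Ov4Cis. Leukocyte markers in the table (2 of 6) summed to 0.67 to 1.96 RPKM, fibroblast markers (4 of 6) to 4.04 to 14.6 and endothelial markers (3 of 4) to 4.27 to 40.9, the last mostly CDH5. In bulk RNA, fewer cells with a transcript and less of it per cell cannot be told apart. Sample titles run in 2 number series: 7 samples (Ov4Carbo replicate 1 and both clones) belong to one and 8 (Ovcar4Parental, Ov4Cis and the other Ov4Carbo replicates) to the other, so the clones and the parental line never share a series. Nothing in the labels describes the series as batches, and the split touches every comparison of a clone with the parental line given below.

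The genes carry the Ensembl identifiers ENSG00000187741 (FANCA), ENSG00000158169 (FANCC), ENSG00000112039 (FANCE), ENSG00000183161 (FANCF), ENSG00000221829 (FANCG), ENSG00000115392 (FANCL), ENSG00000187790 (FANCM), ENSG00000144554 (FANCD2), ENSG00000140525 (FANCI) and ENSG00000136492 (BRIP1). All 10 were measured in every sample, at unequal levels. The clamp genes were the most abundant, with mean log2 RPKM in Ovcar4Parental of 4.96 for FANCI and 4.47 for FANCD2. FANCG followed at 4.27, then BRIP1 at 3.24 and FANCA, whose replicates read 2.89, 3.09 and 3.01. FANCC (2.64), FANCE (2.50), FANCL (2.39) and FANCM (2.21) were lower, and FANCF (1.82) was the lowest. The SD over the 3 parental replicates ran from 0.04 (FANCC) to 0.26 (FANCF). FANCF stood at the bottom in all 5 lines, with line means between 0.64 and 1.82.

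**Figure D1:**
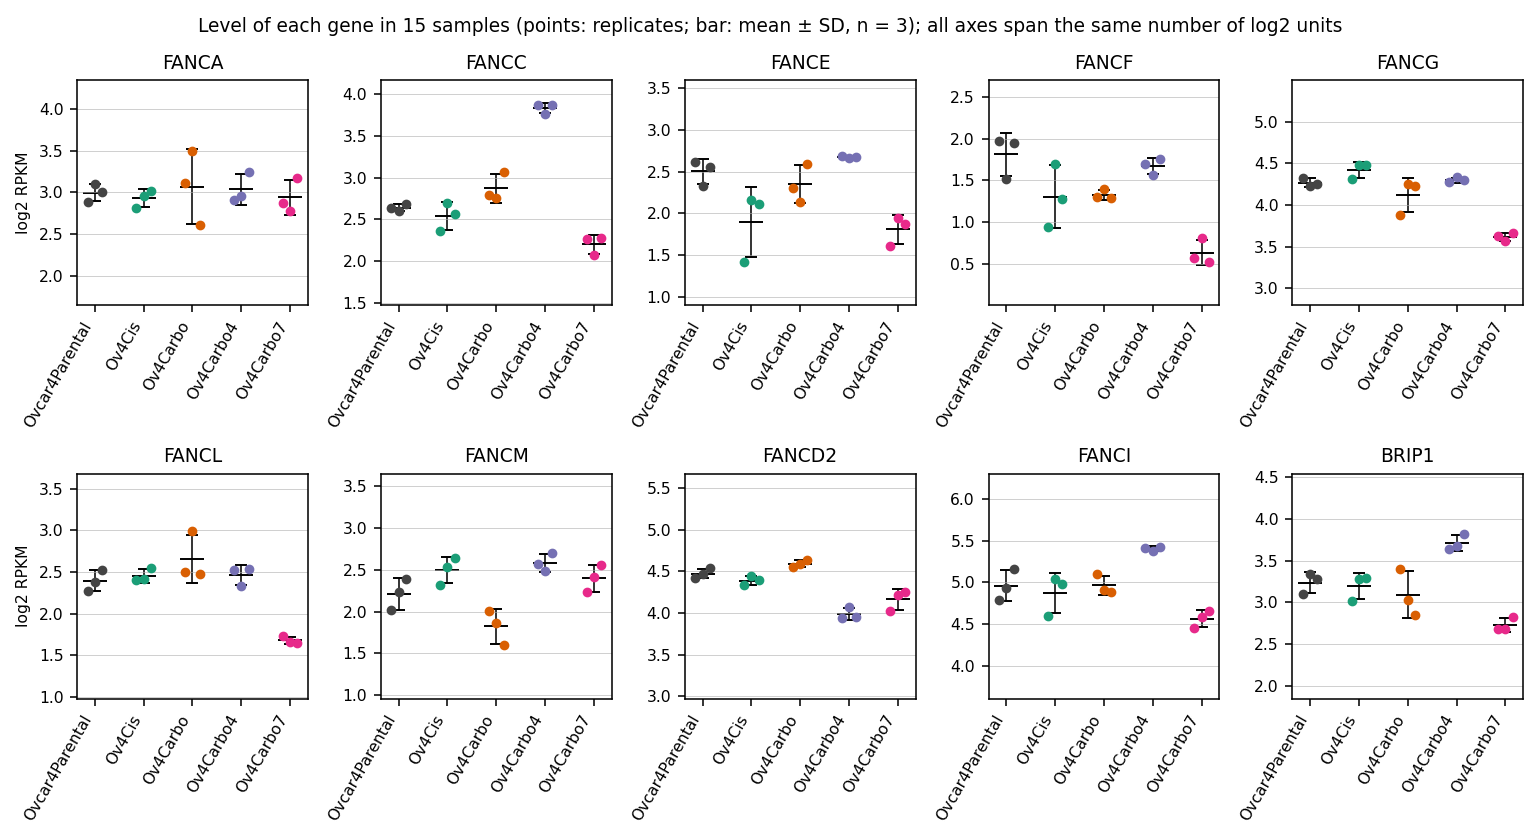
Levels of the 10 Fanconi anemia genes in log2 RPKM (vertical axis) in each of the 15 samples, by line (horizontal axis); points are replicates, the mark is the line mean and its whisker the SD. FANCC is highest in Ov4Carbo4, at 3.76 to 3.88, and FANCF is lowest in Ov4Carbo7, at 0.53 to 0.81.

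Lines differed for most of the genes. A moderated F-test over the 5 lines (limma, Benjamini-Hochberg adjustment over all genes) passed for 9 of the 10 at an adjusted p under 0.05, against 76.9% of all genes. FANCA was the exception, with an adjusted p of 0.934. Its line means lay between 2.93 and 3.07, a range of 0.14, and only 0.343% of all genes had a narrower one. Its Ov4Carbo replicates nonetheless spread from 2.60 to 3.49, with the other lines inside those bounds. The range of line means was widest for FANCC at 1.63, then FANCF at 1.18, BRIP1 and FANCL at 0.98 each, FANCE at 0.87, FANCI at 0.84, FANCG at 0.80, FANCM at 0.76 and FANCD2 at 0.61. Over the 10 pairwise comparisons of lines, 48 of 100 gene-by-comparison tests passed, against 40% for all genes. A change of at least 2-fold as well was found in 5 of the 100, against 15.4% for all genes, and those came from FANCC and FANCF.

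The base sequence upstream of the 3 genes with the widest ranges is shown, because these genes differed most between lines. RefSeq windows on GRCh38.p14 were matched for 9 of the 10 genes. Each is the 250 bases before the annotated start, 5′ to 3′ on the gene's own strand, with matches to 2 motifs in capitals: the E2F letters TTTGGCGC, TTTCGCGC, TTTCCCGC or TTTGGCGG and the CCAAT box CCAAT, on either strand (a match on the other strand reads as its reverse complement). For FANCC, the more upstream of its start sites is used (chr9:95317710-95317959, minus strand). The FANCF window is chr11:22625824-22626073, minus strand, and the BRIP1 window is chr17:61863529-61863778, minus strand.
FANCC: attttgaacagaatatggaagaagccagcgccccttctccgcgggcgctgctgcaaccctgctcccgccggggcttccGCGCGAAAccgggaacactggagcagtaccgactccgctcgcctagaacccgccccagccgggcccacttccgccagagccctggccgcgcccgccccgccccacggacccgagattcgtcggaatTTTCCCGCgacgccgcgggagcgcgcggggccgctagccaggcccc
FANCF: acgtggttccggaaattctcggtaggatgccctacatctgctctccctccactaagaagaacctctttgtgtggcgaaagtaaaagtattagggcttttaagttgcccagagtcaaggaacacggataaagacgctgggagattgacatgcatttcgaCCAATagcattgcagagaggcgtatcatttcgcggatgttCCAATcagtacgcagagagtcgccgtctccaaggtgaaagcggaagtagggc
BRIP1: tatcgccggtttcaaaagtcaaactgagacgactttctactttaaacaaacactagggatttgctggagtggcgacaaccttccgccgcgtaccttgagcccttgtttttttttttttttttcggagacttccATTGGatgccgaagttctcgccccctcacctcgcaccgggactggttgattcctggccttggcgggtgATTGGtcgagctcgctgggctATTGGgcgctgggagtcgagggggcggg
FANCC carried 2 E2F matches and no CCAAT box, FANCF 2 CCAAT boxes and no E2F match, and BRIP1 3 CCAAT boxes, all on the opposite strand. Of the 9 genes with a window, FANCC alone held the E2F letters, in the window shown but not in that of its other start site. Those letters occur in 2.83% of 35116 RefSeq windows of this length. CCAAT was found in 4 of the 9 (32% of all windows) and the GC box GGGCGG in 6 (42.6%). The ETS letters CCGGAAG were in 1 (8.52%), and neither TATAAA (10.7%) nor the NRF1 motif (1.03%) was in any. These matches describe letters in the window and say nothing of what binds there.

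Ov4Carbo7 held the lowest mean of the 5 lines for 7 of the 10 genes. The share of all genes with their lowest mean in this line was not computed, so nothing is drawn from that count. Against Ovcar4Parental, 8 of the 10 fell and none rose, with a median log2 change of −0.47. For all genes, 42.6% passed in this comparison and 20.4% fell. The 3 replicates of Ov4Carbo7 and of Ovcar4Parental did not overlap for 8 of the 10, against 56.5% of all genes. FANCA and FANCM did not pass. In this line the epithelial marker EPCAM stood at a mean of 3.01 against 5.98 in Ovcar4Parental and MUC16 at −0.21 against 4.60. KRT7, KRT8, KRT18 and MSLN also had lower means. PAX8 went the other way, at 6.74 against 6.01, as did WT1, at −4.23 against −5.07. The part of these marker differences in the changes was not tested. The plot of changes against the parental line shows the 4 resistant lines side by side.

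**Figure D2:**
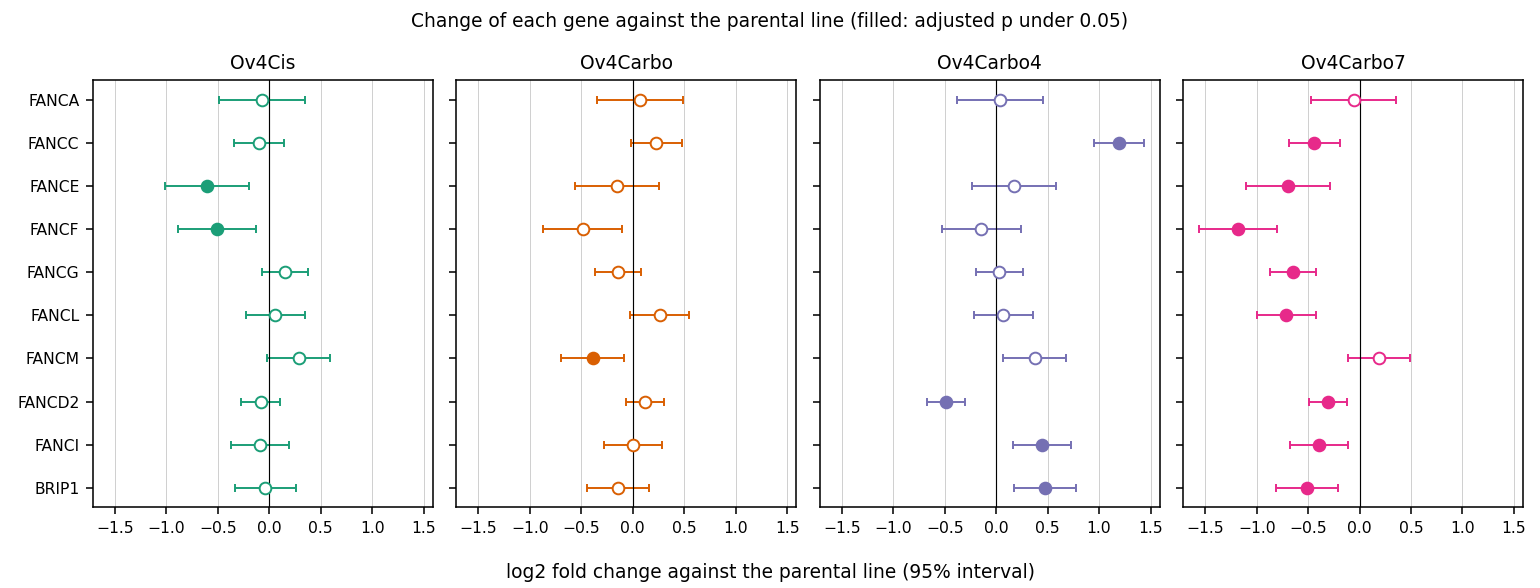
Log2 fold change against Ovcar4Parental with its 95% confidence interval (limma) for the 10 genes in the 4 resistant lines; filled points have an adjusted p under 0.05. In Ov4Carbo7, 8 filled points lie below zero, while in Ov4Carbo4 3 lie above and 1 below.

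FANCF, an adaptor of the core complex, fell most in Ov4Carbo7. Its levels were 1.97, 1.52 and 1.95 in Ovcar4Parental and 0.57, 0.81 and 0.53 in Ov4Carbo7, so the groups did not overlap. The change was −1.18 (SE 0.18, adjusted p = 0.000183), or 2.27-fold lower. Its module partners fell too. FANCE, which links the core complex to FANCD2, went from 2.62, 2.33 and 2.56 to 1.61, 1.95 and 1.87, a change of −0.69 (SE 0.19, adjusted p = 0.0099). FANCC, the remaining subunit of that module, went from 2.63, 2.61 and 2.69 to 2.26, 2.07 and 2.28, a change of −0.44 (SE 0.11, adjusted p = 0.00743).

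The ligase and one of the FANCA and FANCG pair were also lower in Ov4Carbo7. FANCL, the ligase, read 2.28, 2.38 and 2.53 in Ovcar4Parental and 1.73, 1.66 and 1.65 in Ov4Carbo7, and the change was −0.71 (SE 0.13, adjusted p = 0.000932). In the other 4 lines no FANCL value was below 2.28, and neighbours in that upper order did not differ by the test. FANCG, a scaffold of the core complex, read 4.33, 4.23 and 4.25 against 3.63, 3.57 and 3.67, a change of −0.65 (SE 0.10, adjusted p = 0.000313). FANCA, its partner, read 2.87, 2.77 and 3.17 in Ov4Carbo7 against 2.89, 3.09 and 3.01, and its 95% interval for the change ran from −0.48 to 0.36.

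Downstream of the core complex, the clamp genes and the helicase fell in Ov4Carbo7. BRIP1 went from 3.10, 3.34 and 3.27 to 2.68, 2.67 and 2.83, a change of −0.51 (SE 0.14, adjusted p = 0.0101). FANCI went from 4.79, 4.93 and 5.16 to 4.46, 4.58 and 4.65, a change of −0.40 (SE 0.13, adjusted p = 0.0264), and its call was lost without Ovcar4Parental replicate 2 (adjusted p = 0.0555) or 3 (0.112) and without Ov4Carbo7 replicate 1 (0.09) or 2 (0.0576). FANCD2 went from 4.42, 4.46 and 4.53 to 4.02, 4.22 and 4.25, a change of −0.31 (SE 0.09, adjusted p = 0.0124), and its call was lost without Ov4Carbo7 replicate 1 (adjusted p = 0.0554). In each of these 3 genes every Ov4Carbo7 value lay below every parental value.

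With a term for the title number series, the 8 calls in Ov4Carbo7 became 2, FANCF (−1.13, adjusted p = 0.027) and BRIP1 (−0.97, adjusted p = 0.00478). That term is estimated from Ov4Carbo alone, the only line with samples in both series. Over all genes the Ov4Carbo replicates also differed most from each other. Their mean root mean square difference was 0.69 log2 units, against 0.34 to 0.48 in the other lines. Ov4Carbo replicate 1, which shares its series with the clones, lay above all 3 Ov4Carbo7 values for 8 of the 10 genes. It lay below them for 1, FANCM. This is 1 sample, and the share of all genes placed in these ways was not computed, so nothing is drawn from the count. Ov4Carbo replicate 1 differed from the mean of the other Ov4Carbo replicates by −0.36 (FANCG) to 0.46 (BRIP1).

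In Ov4Carbo4, 3 of the 10 genes rose and 1 fell against Ovcar4Parental, against 39.7% of all genes that passed, and the median change was 0.12. FANCC rose most. It read 3.88, 3.76 and 3.87 in Ov4Carbo4, above each of the other 12 samples, of which the highest was 3.07. The change was 1.19 (SE 0.11, adjusted p = 6e-06), or 2.29-fold, and stayed past the threshold with the title series term (1.32, adjusted p = 0.000827). The module partners of FANCC did not pass: FANCE changed by 0.17 and FANCF by −0.14.

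The clamp genes moved apart in Ov4Carbo4. FANCI rose to 5.41, 5.38 and 5.43, a change of 0.45 (SE 0.13, adjusted p = 0.0162), whereas FANCD2 fell to 3.94, 4.07 and 3.95, a change of −0.49 (SE 0.09, adjusted p = 0.000771). FANCI minus FANCD2 was 1.48, 1.31 and 1.48 log2 units in the 3 Ov4Carbo4 samples, a mean of 1.42, or 2.68-fold more FANCI than FANCD2 per length. In the other 4 lines the mean difference was 0.37 to 0.49, and no single sample exceeded 0.62. As background, the 2 proteins pair with each other in the clamp. BRIP1 rose to 3.64, 3.68 and 3.82 in Ov4Carbo4, a change of 0.47 (SE 0.14, adjusted p = 0.0159). FANCM read 2.57, 2.49 and 2.70, above all parental values, and its change of 0.37 had an adjusted p of 0.0503. Leaving out Ovcar4Parental replicate 1 took the calls of FANCI (adjusted p = 0.0666) and BRIP1 (0.0609). BRIP1 was also lost without Ov4Carbo4 replicate 3 (0.0632), and with the title series term the 4 calls became 1, FANCC.

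Ov4Carbo4 and Ov4Carbo7 come from the same carboplatin-selected population, and their samples belong to the same title series. Between them, 7 of the 10 genes were lower in Ov4Carbo7 and none was higher, with a median difference of −0.81. Of all genes, 51.1% passed in this comparison and 27.1% were lower in Ov4Carbo7. The replicates of the 2 clones did not overlap for those 7 genes, against 67.3% of all genes. FANCC differed by −1.63 (SE 0.11, adjusted p = 3.86e-07), or 3.10-fold, and FANCF by −1.04 (SE 0.18, adjusted p = 0.000354), or 2.05-fold. BRIP1 differed by −0.98 (adjusted p = 8.21e-05), FANCE by −0.87 (0.00196), FANCI by −0.84 (0.000171), FANCL by −0.78 (0.000347) and FANCG by −0.68 (0.000161). FANCA, FANCM and FANCD2 did not pass. All 7 calls were kept in each fit that left out 1 sample. They were kept with the title series term too, but that is no check. Both clones lie in the same series, so the term leaves their differences unchanged.

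The clones were then set against the population they came from. Of the 10 genes, 8 passed between Ov4Carbo7 and Ov4Carbo, 7 lower and 1 higher, while 36.6% of all genes passed and 18.2% were lower. FANCL differed by −0.98 (1.97-fold lower), having read 2.50, 2.99 and 2.48 in Ov4Carbo. The gene that was higher was FANCM, by 0.58 (adjusted p = 0.0069), from 2.01, 1.86 and 1.60 to 2.23, 2.41 and 2.55. Between Ov4Carbo4 and Ov4Carbo 5 passed, 4 higher and 1 lower, against 42.2% of all genes that passed and 23.1% that were higher. FANCC differed by 0.97 (adjusted p = 4.6e-05), FANCM by 0.76 (0.0011), BRIP1 by 0.62 (0.0036), FANCI by 0.44 (0.0167) and FANCD2 by −0.61. Of the 8 calls in Ov4Carbo7, 3 were kept on the compared groups alone (FANCC, FANCF and FANCL) and 3 with the title series term (FANCC, FANCL and FANCD2). FANCM in Ov4Carbo7 was among those lost, with adjusted p of 0.0541 on the compared groups and 0.179 with the term, where its change was 0.39. FANCE there was lost in 8 of the 15 fits that left out 1 sample. Of the 5 calls in Ov4Carbo4, the term kept 3 and took those of BRIP1 (0.31, adjusted p = 0.152) and FANCI (0.31, 0.23).

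The uncloned lines differed little from the parental line in these genes. In Ov4Cis 2 of the 10 fell and none rose, with a median change of −0.08, where 36.2% of all genes passed. FANCE read 1.41, 2.17 and 2.11 in Ov4Cis, a change of −0.61 (adjusted p = 0.023), and FANCF read 0.94, 1.70 and 1.28, a change of −0.51 (adjusted p = 0.0386). For each, replicate 1 was the lowest of the Ov4Cis replicates. Without it the changes were −0.36 (adjusted p = 0.0832) and −0.33 (0.161), and each call was also lost without Ovcar4Parental replicate 1 (adjusted p = 0.073 for FANCE and 0.125 for FANCF) or 3 (0.0639 and 0.119). FANCF, whose Ov4Cis and parental values overlap, was lost too without Ov4Cis replicate 3 (0.0955) or Ov4Carbo4 replicate 1 (0.0512).

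In Ov4Carbo 1 of the 10 fell, FANCM, where 34% of all genes passed. Its change was −0.39 (adjusted p = 0.0491), and it was lost in 11 of the 15 fits that left out 1 sample, with adjusted p from 0.0526 to 0.174. FANCF read 1.30, 1.40 and 1.29 in Ov4Carbo, below every parental value, with a change of −0.49 and an adjusted p of 0.0501. In a direct comparison of the uncloned lines, 3 of the 10 passed, against 34.2% of all genes: FANCM was 0.68 higher in Ov4Cis (adjusted p = 0.0028), FANCG 0.30 higher (0.0417) and FANCC differed by −0.33 (0.0387). Only FANCM kept its call on the 2 groups alone. The FANCG call was lost in 11 of the 15 fits that left out 1 sample and that of FANCC in 6. Without Ov4Carbo replicate 1 the FANCG difference was 0.18 (adjusted p = 0.115).

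Against the clones, Ov4Cis differed in 5 genes from Ov4Carbo4 (44% of all genes passed) and in 5 from Ov4Carbo7 (39.2%). The differences from Ov4Carbo4 were −1.30 for FANCC, −0.78 for FANCE, −0.53 for FANCI, −0.51 for BRIP1 and 0.40 for FANCD2. From Ov4Carbo7 all 5 differed upwards, FANCG by 0.80, FANCL by 0.77, FANCF by 0.67, BRIP1 by 0.47 and FANCC by 0.34. With the title series term the 5 calls against Ov4Carbo4 became 1 and the 5 against Ov4Carbo7 became 2. The 10 comparisons share samples, so these values are not independent of the ones above.

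In the order of levels, most neighbouring lines did not differ by the test. For FANCC, Ov4Carbo7 was below Ov4Cis (adjusted p = 0.031) and Ov4Carbo4 above Ov4Carbo (4.6e-05), while Ov4Cis, Ovcar4Parental and Ov4Carbo followed each other without a difference that passed. For FANCF, FANCG and FANCL, Ov4Carbo7 stood below the next line (adjusted p = 0.00933, 0.00267 and 0.000932) and the other 4 lines formed a run with no step that passed. For FANCI and BRIP1 the step that passed was the top one, to Ov4Carbo4 (0.0167 and 0.0159). For FANCM it was the bottom one, from Ov4Carbo to Ovcar4Parental (0.0491). For FANCA, FANCE and FANCD2 no step between neighbours passed.

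The 10 genes lie on 9 chromosomes, FANCC and FANCG both on chromosome 9, and each was set beside up to 10 measured genes on either side. Some lay near their neighbours in 1 or more lines. FANCD2 on chromosome 3 changed by −0.49 in Ov4Carbo4, and its 20 neighbours had a median of −0.61, with 18 of 20 lower and 13 that fell. In Ov4Carbo7 the neighbours had a median of 0.07 while FANCD2 changed by −0.31. FANCE on chromosome 6 changed by −0.61 in Ov4Cis, where its neighbours had a median of −0.49, with 17 of 20 lower and 9 that fell. In Ov4Carbo7 FANCE changed by −0.69 and its neighbours by a median of −0.12. FANCM on chromosome 14 changed by −0.39 in Ov4Carbo and 0.37 in Ov4Carbo4, and its neighbours had medians of −0.24 and 0.32. FANCC on chromosome 9 changed by 1.19 in Ov4Carbo4 and its neighbours by a median of 0.51, with 14 of 20 higher and 7 that rose. In Ov4Carbo7 it changed by −0.44 and its neighbours by a median of −0.07.

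**Figure D3:**
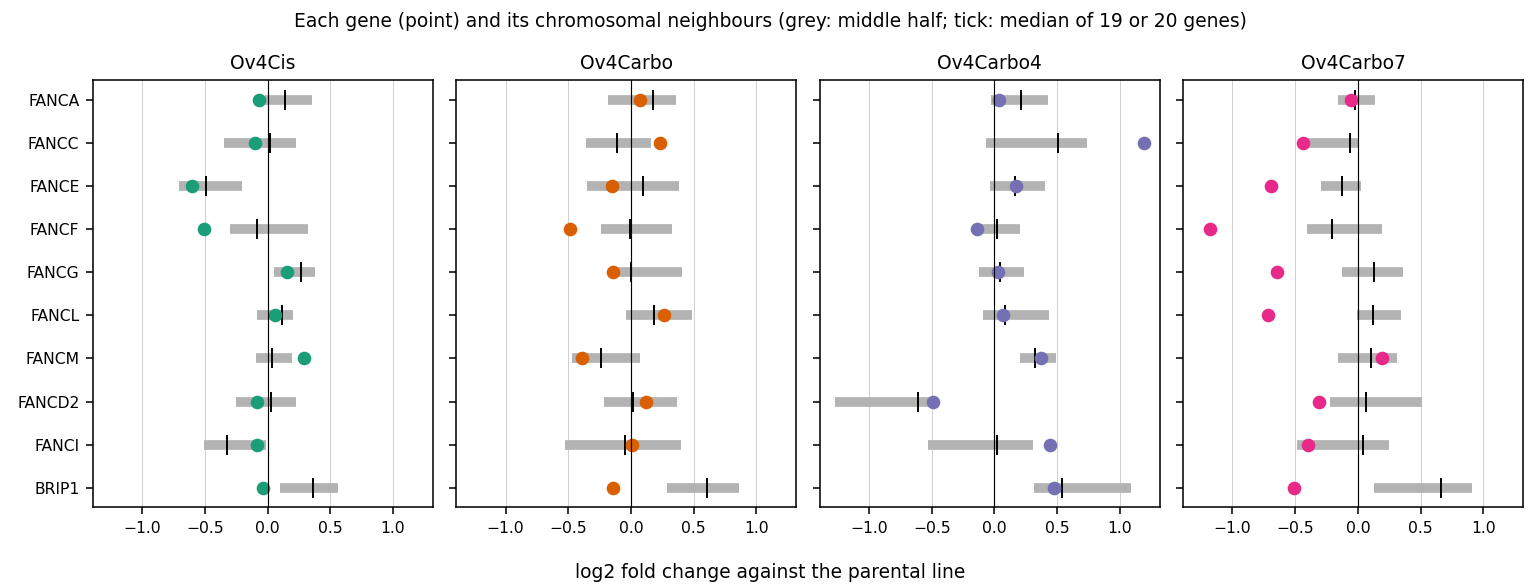
Log2 fold change against Ovcar4Parental of each Fanconi anemia gene beside the median and quartiles of its up to 20 neighbours in gene order, for the 4 resistant lines. FANCD2 and its neighbours lie together below zero in Ov4Carbo4, while BRIP1 in Ov4Carbo7 lies at −0.51 and its neighbours at a median of 0.66.

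In Ov4Carbo7 other members lay apart from their neighbours. FANCF, FANCG and FANCL changed by −1.18, −0.65 and −0.71 in Ov4Carbo7, and their neighbours had medians of −0.20, 0.13 and 0.12. Elsewhere some lay nearer. FANCL changed by 0.26 in Ov4Carbo, where its neighbours had a median of 0.18. FANCG changed by 0.15 in Ov4Cis, where its neighbours had a median of 0.26. BRIP1 on chromosome 17 went against its surroundings. Its neighbours had medians of 0.36 in Ov4Cis and 0.60 in Ov4Carbo, where BRIP1 itself changed by −0.04 and −0.15. In the clones the medians were 0.53 for Ov4Carbo4 and 0.66 for Ov4Carbo7, with 11 of 20 that rose in the latter, where BRIP1 changed by 0.47 and −0.51, so it was level with its neighbours in Ov4Carbo4 alone. Neighbourhood copy number was not measured here, and its part in these changes was not tested.

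Overlapping genes can share reads, and whether counting used strand is not given in the sources used here. POLG, on the opposite strand of FANCI, changed by 0.13 (adjusted p = 0.427) in Ov4Carbo7, where FANCI fell. VRK2, opposite FANCL, changed by 0.00 (adjusted p = 0.992) in Ov4Carbo7, where FANCL fell. ZNF276, opposite FANCA, changed by 0.69 (adjusted p = 0.00226) in Ov4Cis, where FANCA changed by −0.07. In Ov4Carbo4 ZNF276 changed by 0.41 (adjusted p = 0.0402) and FANCA by 0.04. AL157384.1, a pseudogene opposite FANCC, changed by 0.76 (adjusted p = 0.0531) in Ov4Carbo4, where FANCC rose. It changed by 0.30 (adjusted p = 0.434) in Ov4Carbo7, where FANCC fell. FANCD2 has pseudogene copies, so its reads may be split or shared, and its values are less certain than those of the others.

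The other genes of crosslink repair were taken from a list of 36, of which 34 were measured: further core subunits, deubiquitinases, nucleases, bypass polymerases, recombination factors, the BLM complex and checkpoint kinases. In Ov4Cis 9 of the 34 rose and 4 fell, in Ov4Carbo 8 rose and 2 fell, in Ov4Carbo4 9 rose and 4 fell, and in Ov4Carbo7 4 rose and 9 fell. Those counts, 13, 10, 13 and 13 of 34, stand beside the shares of all genes given above. With the title series term the 13 calls in Ov4Carbo4 became 7. On the compared groups alone the 10 calls in Ov4Carbo became 4, and without Ovcar4Parental replicate 2 they became 6. The plot of the pathway list gives every gene.

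**Figure D4:**
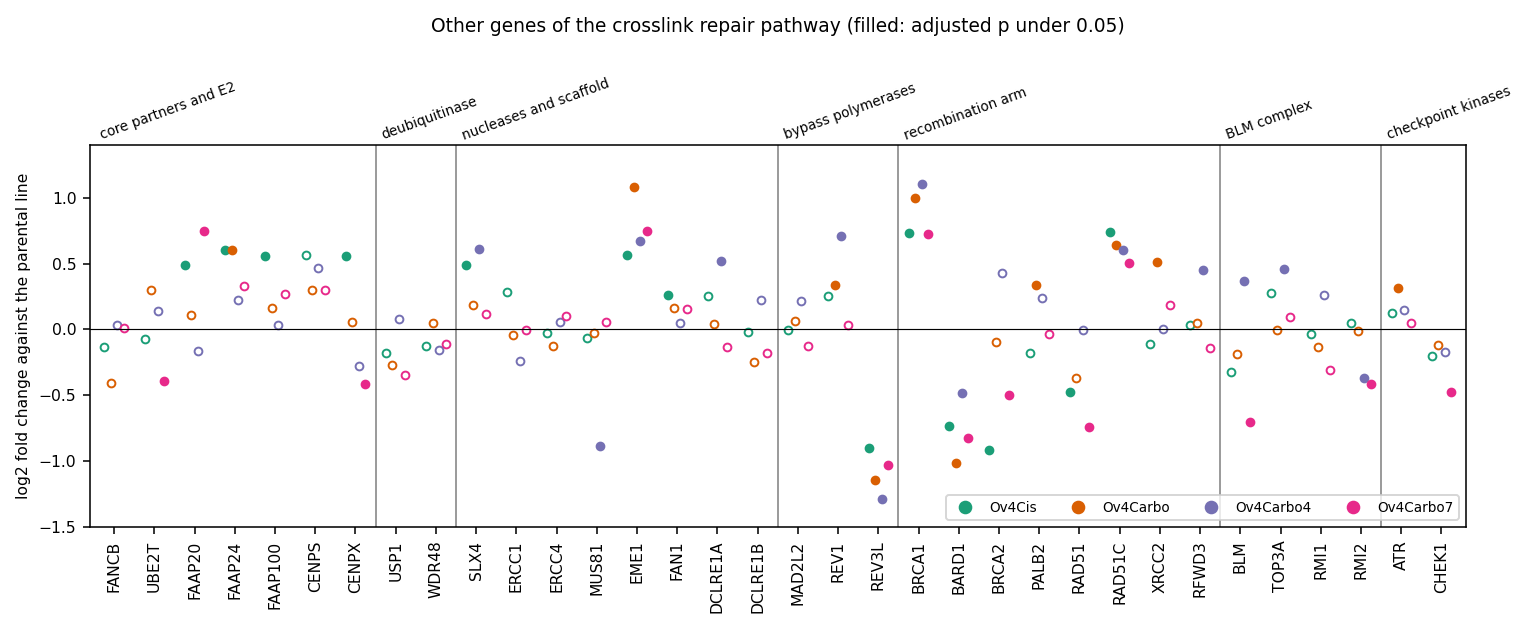
Log2 fold change against Ovcar4Parental of the 34 other crosslink repair genes in the 4 resistant lines, grouped by role; filled points have an adjusted p under 0.05. REV3L and BARD1 are lower and BRCA1, EME1 and RAD51C higher in all 4 lines.

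Of the 34, 5 passed in the same direction in all 4 resistant lines (REV3L, BARD1, BRCA1, EME1 and RAD51C), and none of the 10 Fanconi anemia genes did, against 7.75% of all genes. REV3L, the catalytic subunit of the bypass polymerase zeta, read 4.16, 4.10 and 4.40 in Ovcar4Parental and no more than 3.49 in any resistant sample. On the log2 scale it fell by 1.29 in Ov4Carbo4, 1.14 in Ov4Carbo, 1.03 in Ov4Carbo7 and 0.90 in Ov4Cis. BARD1, the partner of BRCA1 in its ubiquitin ligase, fell by 1.01 in Ov4Carbo. BRCA1, a recombination factor, rose by 1.10 in Ov4Carbo4, 1.00 in Ov4Carbo, 0.74 in Ov4Cis and 0.72 in Ov4Carbo7, from 2.32, 2.20 and 2.45 in Ovcar4Parental. EME1, a subunit of the MUS81 nuclease, rose by 1.08 in Ov4Carbo. These changes are given without the title series term, and the clones share no series with the parental line.

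Genes of DNA replication and division (24 of 24 measured) were followed beside the Fanconi anemia genes, several of which rise in dividing cells. In Ov4Carbo7 14 of the 24 fell and 1 rose against Ovcar4Parental, with a median of −0.40. Of all genes, 42.6% passed there and 20.4% fell. MCM7, a subunit of the replicative helicase, fell by 1.20 on the log2 scale in Ov4Carbo7. The gene that rose in Ov4Carbo7 was TOP2A, a topoisomerase. It rose in all 4 resistant lines, by 0.36 to 0.75. Of the 24, it was the only 1 that passed in the same direction in all 4, against 7.75% of all genes. In Ov4Carbo4 6 of the 24 rose and none fell, with a median of 0.21, where 39.7% of all genes passed. With the title series term the 15 calls in Ov4Carbo7 became 8 and the 6 in Ov4Carbo4 became 1. Between the clones 19 of 24 were lower in Ov4Carbo7 and none higher, with a median of −0.54. Of all genes, 51.1% passed between the clones and 27.1% were lower in Ov4Carbo7. The mean level of the 24 genes was 5.92 in Ov4Carbo4, 5.75 in Ovcar4Parental, 5.74 in Ov4Cis, 5.56 in Ov4Carbo and 5.35 in Ov4Carbo7. Their part in the changes of the Fanconi anemia genes was not tested.

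Genes whose profile over the 15 samples was most like that of the 3 widest-ranging members were sought among 11977 genes with a mean log2 RPKM of at least 1, by Pearson correlation. For FANCC these were RAPGEF2 (r = 0.98), ZNF510 (0.97) and CIZ1 (0.97). Those of FANCF were SGPL1, SIPA1L1 and PRMT2, at 0.94 each. BRIP1 had NES, IDE and KIAA1217, at 0.95 each. NES, which encodes the filament protein nestin, had line means of 6.40 in Ov4Carbo4 and 2.09 in Ov4Carbo7. The samples fall into 5 lines, so these correlations mostly describe 5 line means and carry no p.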

How the data were processed

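RNA from 15 samples (5 lines, 3 replicates each) was sequenced after capture of polyadenylated RNA, per the labels' protocols. The authors deposited 1 table of log2 RPKM values for 16604 genes, normalised for gene length and GC content (cqn). Reads were handled with BWA 0.7.15-r1140 and HTSeq on hg19 (GRCh37), per the submitters' processing notes. The depth, the strandedness of counting and the filter on genes are not given in the sources used here, so counting error cannot be stated and no count test was possible. The table has no missing values, and its lowest value is −8.18.

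The log2 values were used as deposited. All 5 lines were fitted together with limma 3.58.1 (R 4.3.3, lmFit and eBayes), without a replicate term, and 10 pairwise contrasts and an F-test were taken. P-values were adjusted by Benjamini-Hochberg over all genes within each contrast, and a change was called at an adjusted p under 0.05. A change is 2-fold where its absolute log2 value is also at least 1. The fit was tested on simulated data for Ov4Carbo7 against Ovcar4Parental. It recovered 76 of 100 genes changed by 1 log2 unit and 95 of 100 changed by 2, with 10 false calls among the unchanged genes. The simulation held no smaller change, no series effect and far fewer changed genes than the 42.6% that passed in the real comparison. It changed only genes with a mean log2 RPKM of at least 1 and gave each gene the same spread in all lines. The fit makes that assumption of equal spread too, so the simulation could not test it.

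The 10 genes and the comparison lists were chosen with earlier results of these data known. All 10 genes are named. Of the other lists, genes were named that passed at 2-fold or more against the parental line with a mean log2 RPKM of at least 0 in the higher line, at most 8 per list. For likeness, the 3 best-correlated genes of the 3 members with the widest range were taken. RAD51C and TOP2A were named after their values were seen. Gene order came from GENCODE v29 and is used for neighbours only. Promoter sequences came from RefSeq (GRCh38.p14). Alternatives were the variance trend, quantile normalisation, median centring, a filter on genes with a mean under 1, log2(RPKM + 1) and log2(RPKM + 0.1), a fit on the compared groups alone, a block for the replicate number, an adjusted p under 0.01, a term for the title series and leaving out each sample. For the comparison lists, their named genes and the neighbours, these alternatives were chosen after seeing the data.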

Additional observations from a re-analysis of the deposited data

Results flagged for a closer look

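Opposite changes in the 2 clones of the same carboplatin-selected population drew attention to 3 genes. FANCC, FANCI and BRIP1 each rose in Ov4Carbo4 and fell in Ov4Carbo7 against Ovcar4Parental, and were singled out for those opposite calls. The difference between the clones is the same contrast as in the report, so it adds no independent support (limma, Benjamini-Hochberg). The change of Ov4Carbo7 minus that of Ov4Carbo4 was −1.635 for FANCC (adjusted p = 3.86e-07), −0.9835 for BRIP1 (8.21e-05) and −0.8427 for FANCI (0.000171). In each gene every Ov4Carbo7 sample lay below every Ov4Carbo4 sample, and 67.3% of all genes had no overlap between these lines. The changes against the parental line were less firm. With the title series term the calls of FANCI (0.25, adjusted p = 0.457) and BRIP1 (0.01, 0.973) in Ov4Carbo4 and of FANCC (−0.31, 0.268) and FANCI (−0.60, 0.0767) in Ov4Carbo7 were lost. Leaving out 1 sample also took the call of FANCI in either clone and of BRIP1 in Ov4Carbo4. Between the clones the 24 replication and division genes had a median of −0.54, and their part in these differences was not tested.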

How the results depend on the processing

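Of the 48 changes called among the 10 genes, none reversed in any alternative run, and 18 kept an adjusted p under 0.05 in every refit. All 48 were kept with the variance trend, median centring, the filter on low genes and both log2(RPKM + pseudocount) scales, and 47 with quantile normalisation. On the compared groups alone 36 were kept, with the title series term 24, and with 1 sample left out 41 to 47. The 24 include 7 between the clones and 2 between Ov4Cis and Ovcar4Parental. In both of these comparisons the lines share a series, so the term leaves the differences unchanged. No scaling moved the median of all genes by over 0.1. Replicate numbers did not pair the samples throughout: the deviations of same-numbered samples correlated at −0.39 to 0.44 over 30 pairs, with 11 over 0.1. Their median was −0.02, against 0.02 for samples with other numbers. Whether equal numbers share a day or batch in some lines is not given in the labels. With the replicate number as a block 45 of the 48 calls were kept. Those lost under the block were FANCF in Ov4Cis (adjusted p = 0.0608), FANCM in Ov4Carbo (0.0619) and FANCG between Ov4Cis and Ov4Carbo (0.0535), so that the counts against the parental line became 1 in Ov4Cis and 0 in Ov4Carbo.

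The counts of called members that moved were as follows. On the compared groups alone they were 0 in Ov4Cis and 0 in Ov4Carbo against the parental line, 3 for Ov4Carbo7 against Ov4Carbo and 1 for Ov4Cis against Ov4Carbo. The title series term gave 1 in Ov4Carbo4 and 2 in Ov4Carbo7 against the parental line, 4 for Ov4Carbo7 against Ov4Carbo (3 of the 8 kept and 1 gained), 4 for Ov4Carbo4 against Ov4Carbo (3 of the 5 kept and 1 gained), 1 for Ov4Cis against Ov4Carbo4 and 2 against Ov4Carbo7. At an adjusted p under 0.01 against the parental line they were 5 in Ov4Carbo7, 2 in Ov4Carbo4 and 0 in both Ov4Cis and Ov4Carbo, 1 for Ov4Cis against Ov4Carbo and 3 against Ov4Carbo7. In Ov4Carbo against the parental line the count was 0 with quantile normalisation and 2 with the filter and with either pseudocount. The 5 tests past 2-fold became 3 on log2(RPKM + 1), a scale that shrinks low values. For the other crosslink repair genes, the count was 4 (compared groups alone) and 6 (adjusted p under 0.01) in Ov4Carbo, 7 (title series term) in Ov4Carbo4 and 8 (adjusted p under 0.01) in Ov4Carbo7. For the replication genes at an adjusted p under 0.01 it was 8 in Ov4Carbo7, 1 in Ov4Carbo4 and 3 in both Ov4Cis and Ov4Carbo, with the compared groups alone 2 in Ov4Carbo, and with the title series term 1 in Ov4Carbo4 and 8 in Ov4Carbo7. Where the title series term moved a count, the cause was not tested.

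With 1 sample left out, called members against the parental line numbered 6 to 8 in Ov4Carbo7, 2 to 5 in Ov4Carbo4 and 0 to 2 in Ov4Cis and in Ov4Carbo. They numbered 1 to 3 between Ov4Cis and Ov4Carbo and 3 to 6 between Ov4Cis and Ov4Carbo7. Other repair genes in Ov4Carbo numbered 6 to 13, and replication genes 5 to 9 in Ov4Cis, 2 to 7 in Ov4Carbo4 and 8 to 15 in Ov4Carbo7. Some changes that passed no test switched sign with a sample left out. Against the parental line, FANCA ranged from −0.14 to 0.31 in Ov4Carbo, from −0.0664 to 0.105 in Ov4Carbo4 and from −0.18 to 0.023 in Ov4Carbo7. BRIP1 ranged from −0.11 to 0.052 in Ov4Cis, and FANCI from −0.17 to 0.049 in Ov4Cis and from −0.079 to 0.10 in Ov4Carbo. With the title series term, FANCI in Ov4Carbo was −0.062 (adjusted p = 0.751), FANCA in Ov4Carbo4 −0.025 (0.969) and FANCM in Ov4Carbo7 −0.093 (0.804).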

Other observations

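BRIP1 shares chromosome 17 with other crosslink repair genes, a set put together after their values were seen. In gene order, TOP3A, BRCA1, EME1 and RAD51C precede BRIP1. TOP3A, a topoisomerase of the BLM complex, rose in Ov4Carbo4 by 0.45 (adjusted p = 0.0274) and passed in no other line, with changes of 0.28 in Ov4Cis, −0.0038 in Ov4Carbo and 0.09 in Ov4Carbo7. RAD51C, a recombination factor, rose in all 4 resistant lines, by 0.50 in Ov4Carbo7, 0.60 in Ov4Carbo4, 0.64 in Ov4Carbo and 0.74 in Ov4Cis (limma adjusted p from 0.000954 to 0.01). BRCA1 and EME1 also rose in all 4. BRIP1 rose in Ov4Carbo4 alone and fell in Ov4Carbo7. FAAP100 and CENPX, core complex partners that lie after BRIP1, rose in Ov4Cis by 0.55 each, and CENPX fell in Ov4Carbo7 by 0.41. All these changes are given without the title series term, so those in the clones carry the limit of the series split.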
